A study of Homo sapiens with 2 samples.

Results

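The genes of HLA class I antigen presentation examined here were B2M, HLA-B, HLA-C, HLA-E, HLA-F, TAP1, TAP2, TAPBP and NLRC5, 9 of the 20037 protein-coding genes in the annotation used. They were taken from a fixed list of names, which was chosen with earlier results of these data known. Every region of enrichment inside each gene or within 10 kb of either end was collected. The regions mark lysine lactylation in the human cell line CAL27, from an oral squamous cell carcinoma, mapped by CUT&Tag, in which an antibody (here pan-lactyllysine) steers a protein A-Tn5 transposase to cut the DNA beside the modification. One library came from cells with no treatment and 1 from cells kept in 10 mM lactate for 24 hours. They held 15696147 and 15120031 tags. The antibody recognises lactylated lysine on any protein, and no library without antibody was used here. In each deposited peak list the run name and every peak name carry the name of the other sample. The name line of the same header carries the name that goes with the label, so the headers conflict within themselves. The libraries are therefore called by their labels, and every direction below would turn if the lists were exchanged. With 1 library per group no difference has a replicate check and no p-value is given. The 95% intervals are exact for independent counts and cover counting error only, not differences between replicate libraries. Tags are not independent molecules, and the summit of highest fold was taken, so the intervals can be too narrow.

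HLA class I molecules show peptides from inside the cell to CD8+ T cells and natural killer cells. A heavy chain, encoded by an HLA gene, pairs with beta-2-microglobulin, and the peptide is cut by the proteasome, carried into the endoplasmic reticulum by the TAP1-TAP2 transporter and loaded with the help of tapasin, the product of TAPBP. NLRC5 is the transactivator that, together with the RFX complex, CREB or ATF1 and NF-Y, switches on the class I genes, and interferon raises them, in part through IRF1. Carcinomas often lose parts of this pathway, which hides them from T cells.

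The bases before the gene starts are shown first because the results turn on whether a region lies over a start, and because the HLA genes resemble each other there. Sequences are from RefSeq (GRCh38.p14), read 5′ to 3′ up to the base before the start. The RefSeq table held a start for 7 of the 9 genes. HLA-E and NLRC5 were not among them. Up to 250 bases are printed for each of the 7 genes except TAPBP, whose stretch was used but is not printed. For B2M the stretch was ended 20 bases inside the neighbouring gene PATL2, which leaves 146 bases. Capitals mark matches on either strand to GAAANNGAAA (the core of the interferon-stimulated response element), CCAAT (the letters NF-Y binds) and TGACG (a core of CREB and ATF sites). Adjacent capitals can hold overlapping matches.
HLA-B, chr6:31357180-31357429, minus strand: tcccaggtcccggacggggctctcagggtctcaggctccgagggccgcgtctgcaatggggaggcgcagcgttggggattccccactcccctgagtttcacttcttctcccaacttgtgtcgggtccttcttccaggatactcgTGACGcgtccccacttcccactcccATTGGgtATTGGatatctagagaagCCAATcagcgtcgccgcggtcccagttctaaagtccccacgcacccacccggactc
HLA-C, chr6:31272093-31272342, minus strand: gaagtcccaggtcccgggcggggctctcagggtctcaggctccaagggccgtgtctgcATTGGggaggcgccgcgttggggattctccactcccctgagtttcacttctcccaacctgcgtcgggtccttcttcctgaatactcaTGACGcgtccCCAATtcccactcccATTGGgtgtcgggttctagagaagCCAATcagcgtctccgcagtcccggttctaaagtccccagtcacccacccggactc
HLA-F, chr6:29723184-29723433, plus strand: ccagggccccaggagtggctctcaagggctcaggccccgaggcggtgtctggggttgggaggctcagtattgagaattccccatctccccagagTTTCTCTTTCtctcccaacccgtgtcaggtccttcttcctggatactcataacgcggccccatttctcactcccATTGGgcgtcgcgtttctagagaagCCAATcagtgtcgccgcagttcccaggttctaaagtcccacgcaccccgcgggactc
B2M, chr15:44711371-44711516, plus strand: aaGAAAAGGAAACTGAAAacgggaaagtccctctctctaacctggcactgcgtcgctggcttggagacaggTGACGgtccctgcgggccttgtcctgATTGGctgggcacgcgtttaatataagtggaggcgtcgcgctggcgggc
TAP1, chr6:32853705-32853954, minus strand: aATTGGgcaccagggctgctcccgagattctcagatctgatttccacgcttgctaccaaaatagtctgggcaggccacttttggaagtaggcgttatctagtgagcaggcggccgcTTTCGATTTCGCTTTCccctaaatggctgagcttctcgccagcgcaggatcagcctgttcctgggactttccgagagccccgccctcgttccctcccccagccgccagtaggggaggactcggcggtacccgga
TAP2, chr6:32838740-32838989, minus strand: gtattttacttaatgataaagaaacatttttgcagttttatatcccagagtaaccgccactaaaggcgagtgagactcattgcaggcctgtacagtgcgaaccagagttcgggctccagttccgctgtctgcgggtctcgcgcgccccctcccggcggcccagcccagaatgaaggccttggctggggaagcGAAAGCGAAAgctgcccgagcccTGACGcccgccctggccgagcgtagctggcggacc

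The stretches before HLA-B and HLA-C were identical in 226 of 254 alignment columns (89.0%), with a longest identical run of 25 bases. HLA-F matched HLA-B in 80.4% and HLA-C in 78.7%. The other 18 pairs of the 7 genes were identical in 47.3% to 51.9%, so the likeness was among the HLA genes. The tag sizes in the file headers were 120 and 113 bp, longer than that run. The sequences inside the genes were not used here. Tags at HLA genes can fit more than one of them, and the alleles of CAL27 can differ from the reference. Their counts are therefore uncertain, and the part of this in the results was not tested.

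**Figure D1:**
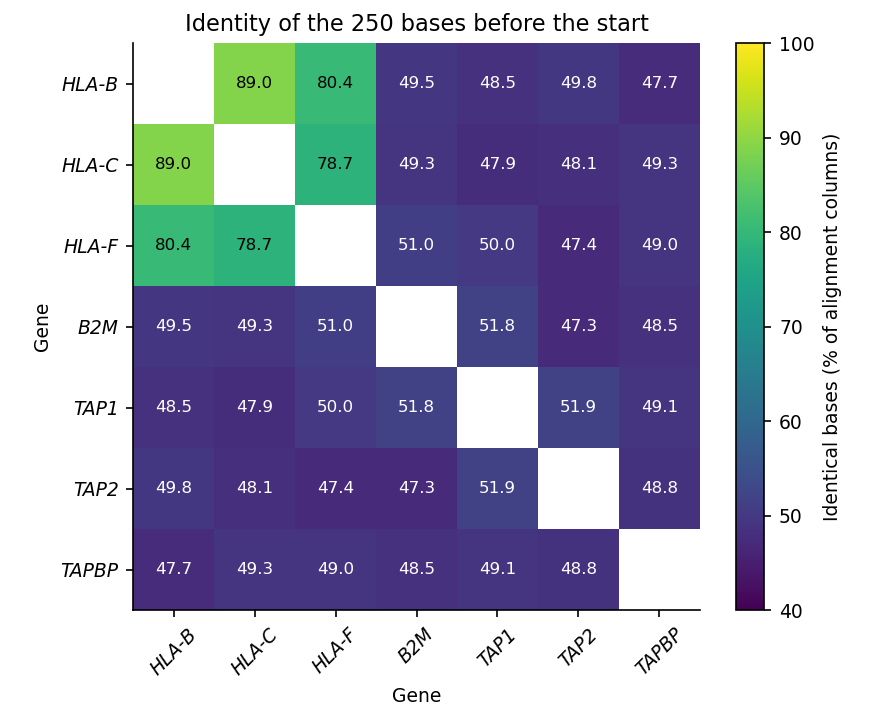
Identity between the 250 bases before the starts of the 7 genes in the RefSeq table. Axes are genes and the colour and printed values are identical bases in percent of the columns of a pairwise alignment; the 3 pairs of HLA genes stand at 78.7% to 89.0% and the other pairs at 47.3% to 51.9%.

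A match to GAAANNGAAA lay in the 250 bases before 5 of the 7 starts (B2M, HLA-F, TAP1, TAP2 and TAPBP), against 2.68% of 13819 protein-coding starts. HLA-B and HLA-C had no match to these exact letters. TAPBP, TAP1 and B2M each had 2 overlapping matches, in TAPBP from 20 to 5 bases before the start. TGACG stood 106 to 102 bases before the start in HLA-B and 105 to 101 in HLA-C, and was in 4 of the 7 stretches and in 26.1% of all. CCAAT was in 5 of the 7 and in 35.2% of all. A loose kappaB consensus, GGGNNNNNCC, not capitalised above, was in 6 of the 7 and in 63.1% of all. The letters were chosen with the sequences in view, and a match is a description of the sequence, not evidence of binding.

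The 9 genes had 29 regions in the untreated-labelled library and 30 in the lactate-labelled library. A region was counted once also where the windows of TAP1 and TAP2 overlap. At least 1 region was found at 8 of the 9 genes in each library, where 74.2% and 78.3% of all protein-coding genes had one. Both libraries had regions at 7 genes (70.5% of all genes did). HLA-F had regions in the untreated-labelled library alone, as did 3.69% of genes, and HLA-C in the lactate-labelled library alone, as did 7.80%. The count was higher in the lactate-labelled library at 4 genes (B2M, HLA-C, HLA-E, NLRC5; 35.7% of all genes), lower at 2 (HLA-F, TAP2; 16.5%) and equal at 3.

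TAP1 had 5 regions in each library, against a median of 1 among 5966 genes with windows of like length, of which 1.04% and 2.26% had as many. TAPBP had 6 in each, which 0.384% and 1.09% of like genes reached. The 94.0 kb gene NLRC5 had 9 and 11, against medians of 2 and 3. TAP2 had 5 and 3, which 1.90% and 24.8% of like genes reached. In each library 3 of these regions are also counted at TAP1, so the 2 genes are not independent. They are all that TAP2 had in the lactate-labelled library. HLA-E had 3 and 4 against a median of 1, which 9.94% and 5.66% reached. The other heavy chain genes stood at or within 1 region of the median of 1 in each library, with 1 and 1 at HLA-B, 0 and 1 at HLA-C and 2 and 0 at HLA-F, and B2M had 1 and 2. The TAP and TAPBP windows also hold the starts of other genes, named below.

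**Figure D2:**
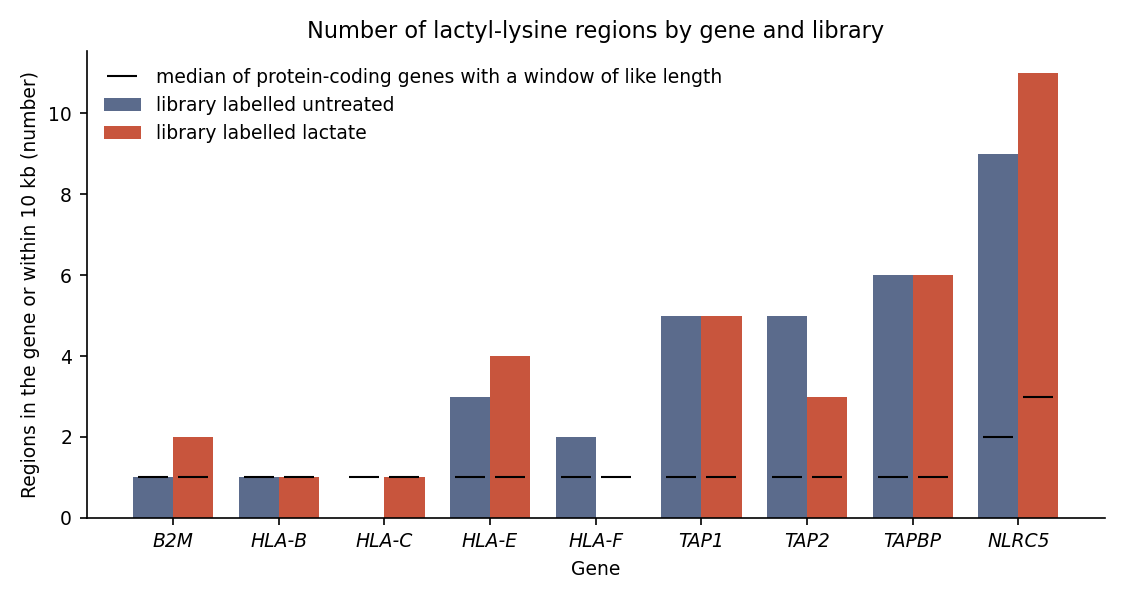
Number of regions in each gene or within 10 kb of it (y axis) for the 9 genes (x axis), in the untreated-labelled library (blue) and the lactate-labelled library (red). In each library 3 regions are counted at both TAP1 and TAP2. Black dashes are medians over protein-coding genes with windows of like length; NLRC5 stands highest with 9 and 11 regions, HLA-C has 0 in the first library and HLA-F 0 in the second.

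The fold enrichments at these genes had lower medians than those of all regions. Fold enrichment is the authors' ratio of summit pileup to local background, with 1 added to both. Its median was 4.09 at these genes in the untreated-labelled library (4.63 over all regions) and 4.40 in the lactate-labelled library (4.87 over all). A fold enrichment of 5 or more was reached by 7 of 29 and 11 of 30 of their regions, where 39.6% and 47.3% of all regions reached it. Pileup, the number of tags stacked at the summit, ranged from 8 to 34 and from 12 to 46. The median local background was 3.24 and 3.47 tags at these genes, against 2.12 and 2.20 over all regions.

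Of the 29 regions 21 overlapped one in the other library, by 1 bp or more (72.4%, interval 52.8 to 87.3), against 71.2% of all regions. Of the 30 it was 20 (66.7%, interval 47.2 to 82.7), against 61.2%. Both intervals treat regions as independent, though many are neighbours in the same window, so they can be too narrow. Joined by overlap, the regions formed 38 loci, with 20 in both libraries, 8 in the untreated-labelled library alone and 10 in the lactate-labelled library alone. In what follows, paired positions, tags and folds give the untreated-labelled library first. The summits of the shared loci lay 1 to 132 bp apart, with a median of 26.5 bp (35 bp over all shared loci).

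**Figure D3:**
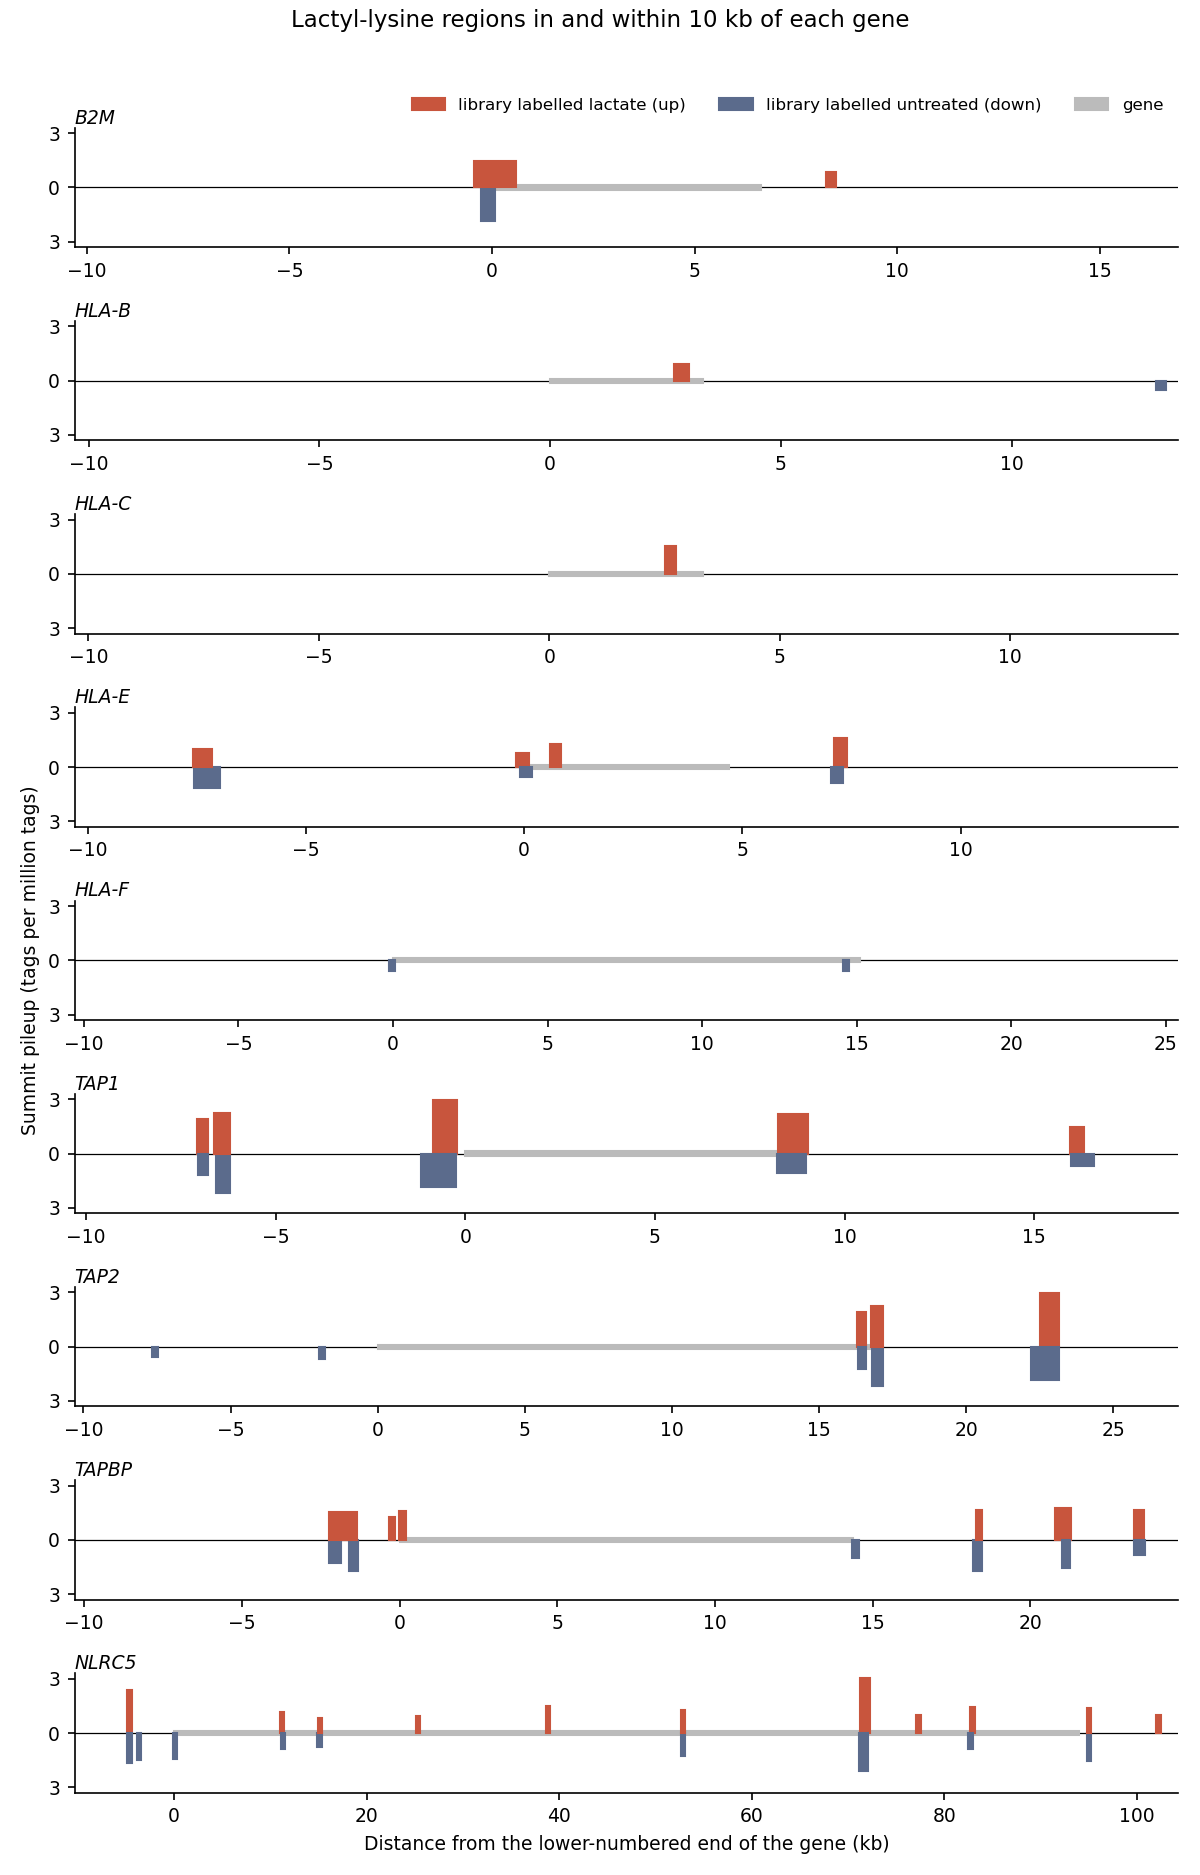
Regions along each gene (grey bar) and 10 kb to both sides; the x axis is the distance in kb from the lower-numbered end and the y axis the summit pileup per 1000000 tags of the library, upward for the lactate-labelled library (red) and downward for the untreated-labelled library (blue). Narrow regions are drawn at a minimum width; HLA-C and the HLA-B gene body carry red bars alone, HLA-F blue bars alone, and the TAP1 loci bars in both.

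B2M encodes the light chain shared by all class I molecules. Its start, on chromosome 15, lay under a region in both libraries, from 44711245 to 44711595 in the untreated-labelled library and, wider, from 44711083 to 44712098 in the lactate-labelled library. The summits of highest fold stood 116 and 96 bases before the start. They fall within the printed stretch, between the paired interferon element letters and TGACG, and PATL2, on the other strand, shares the region. The pileup was 29 tags in the untreated-labelled library and 22 in the lactate-labelled library, a ratio of 0.787 after division by each library's total tags (lactate over untreated, interval 0.431 to 1.42). That was the lowest ratio of the 20 shared loci, and its interval includes 1. The fold enrichments were 7.85 and 5.04, at the 94.7th and 54.0th percentile of their lists. The lactate-labelled region had a second summit, inside the gene at 44711554, with 21 tags and a fold of 4.85. A further region from 44719759 to 44720012, 1614 bp above the gene, was in the lactate-labelled library alone with a pileup of 13 and a fold of 3.59.

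HLA-C and HLA-B encode classical heavy chains. HLA-C (chromosome 6, 31268749 to 31272092) had 1 region, in the lactate-labelled library alone, from 31271264 to 31271486, with its summit inside the gene 711 bases after the start. Its pileup was 23 and its fold enrichment 5.41, at the 62.5th percentile. In the untreated-labelled library the lowest pileup listed at a like local background was 11, so tags below about that height would not appear in its list.

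HLA-B (31353875 to 31357179) had a region in the lactate-labelled library alone from 31356553 to 31356885, its summit 446 bases after the start. The pileup was 14 and the fold 4.05, at the 27.8th percentile, with 9 as the lowest pileup listed at a like background in the other library. The library labelled untreated had a region of 8 tags and a fold of 4.37 from 31367009 to 31367208, 9830 bp above the gene and close to the pseudogene DHFRP2. Neither library had a region over the printed bases before HLA-B or HLA-C. The annotation used gives no exons, so the regions are placed only as inside the gene.

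HLA-E and HLA-F encode non-classical heavy chains. HLA-E presents signal peptides of other class I molecules to natural killer cells, and HLA-F is known mostly as a ligand of natural killer cell receptors. HLA-E (30489509 to 30494194) had 3 shared loci and 1 in the lactate-labelled library alone. The locus across its lower end (30489414 to 30489689 in the first library, 30489319 to 30489624 in the second) was weak, with pileups of 9 and 12 and folds of 2.91 and 3.40, in the untreated-labelled library and the lactate-labelled library. The region in the lactate-labelled library alone, from 30490102 to 30490350 inside the gene, had a pileup of 19 and a fold of 5.03, with 10 as the lowest listed in the other library. The strongest by fold lay 6976 bp below the gene, past the pseudogene RANP1 (30481945 to 30482533 and 30481918 to 30482357), with 18 and 15 tags and folds of 7.36 and 6.56. A locus 2344 bp above the gene (30496538 to 30496817 and 30496607 to 30496900, folds 4.66 and 6.54) had 14 and 24 tags, a ratio of 1.78 (interval 0.884 to 3.72).

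HLA-F (29723434 to 29738532) had 2 regions, both in the untreated-labelled library alone. The region from 29723312 to 29723511 covered the start, with its summit 72 bases before it, near the paired CCAAT letters of the printed stretch. The other, from 29737980 to 29738179, lay near the far end, where HLA-F-AS1 overlaps the gene. Each had a pileup of 9, with folds of 3.40 and 3.60, at the 11.5th and 17.2nd percentile. The lowest pileup listed at a like background in the lactate-labelled library was 7, so both were near the limit of listing.

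TAP1 and TAP2 encode the paired subunits of the peptide transporter and lie side by side on chromosome 6 with PSMB8 and PSMB9, which encode subunits of the immunoproteasome. This cluster held 5 shared loci and the highest folds among the 9 genes. TAP2 (32821831 to 32838739) had a region over its start in both libraries, from 32838634 to 32838995 in the untreated-labelled library and from 32838595 to 32839001 in the lactate-labelled library. The pileup was 34 in each, with folds of 8.84 and 8.25, at the 97.5th and 93.7th percentile. The summits lay 102 and 129 bases before the start, upstream of the printed GAAAGCGAAA.

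A second region inside TAP2 (32838153 to 32838413 and 32838128 to 32838413, folds 5.13 and 7.32), its summit 446 and 458 bases after the start, had 19 and 29 tags (ratio 1.58, interval 0.859 to 2.99). The region over the start of PSMB8, 225 bp below TAP1 (32844049 to 32844973 and 32844355 to 32844984), had 29 and 45 tags (ratio 1.61, interval 0.988 to 2.66). Its fold in the lactate-labelled library, 10.4, was the highest at these genes and stood at the 98.6th percentile of that list, against 6.64 in the untreated-labelled library. TAP2 also had 2 regions in the untreated-labelled library alone, 7460 and 1782 bp below the gene (32814172 to 32814371 and 32819850 to 32820049), with 9 and 11 tags and folds of 3.85 and 5.26. The first overlaps HLA-DOB, a gene of class II peptide loading.

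TAP1 (32845209 to 32853704) starts less than 1 kb from PSMB9, on the opposite strand, and 1 region in each library covered the TAP1 start and reached to PSMB9, from 32853434 to 32854191 and from 32853463 to 32854232. PSMB9 begins at 32854192, so the lactate-labelled region covers its first base and the untreated-labelled region ends next to it. Within it the untreated-labelled library had summits of 12, 13 and 17 tags and the lactate-labelled library summits of 27 and 33. The highest summits, next to PSMB9, had folds of 4.62 and 7.56 and gave a ratio of 2.02 (interval 1.09 to 3.86). This was the 1 of 20 shared loci whose interval excludes 1, where 5.22% of all shared loci do so. A locus 7443 bp above TAP1, beyond PSMB9 (32861175 to 32861779 and 32861147 to 32861518, folds 4.76 and 7.99), had 11 and 22 tags (ratio 2.08, interval 0.965 to 4.74), the highest ratio of the 20.

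TAPBP encodes tapasin, which bridges TAP and the heavy chain. It (33299694 to 33314078) lies between RGL2 and ZBTB22, and its window had 7 loci, of which 4 were shared. The start was covered in the untreated-labelled library alone, from 33314050 to 33314261, with 16 tags and a fold of 3.06, at the 4.41st percentile; the lowest listed in the other library at a like background was 12. At the other end of the gene, which overlaps RGL2, the lactate-labelled library alone had regions from 33299361 to 33299560 and from 33299688 to 33299887, with 19 and 24 tags and folds of 2.60 and 3.21. Their local background was 6.70 and 6.78 tags, where the highest at these genes was 6.82 (below NLRC5) and the genome-wide background 0.976. The shared loci of this window lay in or near other genes. Inside RGL2 the untreated-labelled library had 2 regions, 33297457 to 33297847 with 20 tags and 33298083 to 33298364 with 27, and the lactate-labelled library 1, 33297462 to 33298334, with 3 summits of 22 to 23 tags. The higher-fold summits gave a ratio of 0.884 (interval 0.484 to 1.60), with folds of 4.84 and 3.13.

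At ZBTB22 the locus (33317863 to 33318154 and 33317957 to 33318156) had 27 and 25 tags, folds of 4.09 and 3.37 and a ratio of 0.961. In DAXX, which encodes a histone H3.3 chaperone, the locus (33320709 to 33320953 and 33320482 to 33320968) had 24 and 27 tags, folds of 4.13 and 4.20 and a ratio of 1.17. The intervals of both include 1. The last, 8901 bp above TAPBP (33322979 to 33323325 and 33322980 to 33323288), had 13 and 25 tags, folds of 2.89 and 4.87 and a ratio of 2.00 (interval 0.983 to 4.25).

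NLRC5 (chromosome 16, 56989557 to 57083520) had 13 loci, with 7 shared, 2 in the untreated-labelled library alone and 4 in the lactate-labelled library alone. The lower end of the gene was covered in the untreated-labelled library alone, from 56989431 to 56989630, with 22 tags and a fold of 3.55; 14 was the lowest pileup listed in the other library at a like background. The strongest locus lay deep inside the gene, from 57060690 to 57061647 in the untreated-labelled library and from 57060745 to 57061804 in the lactate-labelled library. It was about 1 kb wide with 2 summits in each library. The higher summit had 33 and 46 tags, folds of 5.56 and 7.01, and a ratio of 1.45 (interval 0.905 to 2.34).

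Below NLRC5, in the noncoding gene LOC124903696, a shared locus (56984725 to 56984997 and 56984712 to 56984990) had 26 and 36 tags and folds of 3.91 and 4.73, with summits 1 bp apart. A second region there (56985700 to 56985910), of 23 tags and a fold of 3.44, was in the untreated-labelled library alone. The other 5 shared loci of NLRC5 had ratios from 0.908 to 1.63, each with an interval that includes 1.

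Of these 5, taken in order along the gene, the first (57000631 to 57000830 and 57000538 to 57000937) had 14 and 18 tags and folds of 3.38 and 4.34. The second (57004434 to 57004708 and 57004492 to 57004731) had 12 and 13 tags and folds of 3.39 and 3.35. The third (57042204 to 57042428 and 57042187 to 57042436) had 20 and 19 tags and folds of 4.07 and 3.97. All 3 lie inside the gene and differ by at most 4 tags between the libraries. Further along, a locus still inside the gene (57072018 to 57072387 and 57072232 to 57072479) had 14 and 22 tags and folds of 3.54 and 4.83. The last, 799 bp above the gene (57084319 to 57084518 and 57084329 to 57084752), had 24 and 21 tags and folds of 4.94 and 4.45. Its 4 regions in the lactate-labelled library alone were 57014672 to 57014919, 57028193 to 57028422, 57066644 to 57066843 and, 8018 bp above the gene, 57091538 to 57091776. They had 14, 23, 15 and 15 tags and folds of 4.21, 3.70, 3.83 and 3.38. The lowest pileups listed in the other library at like backgrounds were 9, 14, 10 and 11. The folds of all 4 were below the median fold of that list, 4.87.

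Over the 20 shared loci the median ratio of depth-scaled pileup was 1.36 (lactate over untreated), from 0.787 to 2.08. The median over all 30057 shared loci was 1.18. The ratio was above 1 at 14 of the 20 (71.4% of all shared loci) and below 1 at 6. It was 1.5 or more at 7 of the 20, where 20.3% of all shared loci reached this, and at 0 was it 1.5 or more in the other direction (2.92% of all). Of these 7 loci, 4 were among the 5 of the TAP1, TAP2, PSMB8 and PSMB9 cluster. The depth-scaled local background was 1.17 times as high in the lactate-labelled library at these 20 loci and 1.09 times over all shared loci, and its part in the ratio was not tested.

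**Figure D4:**
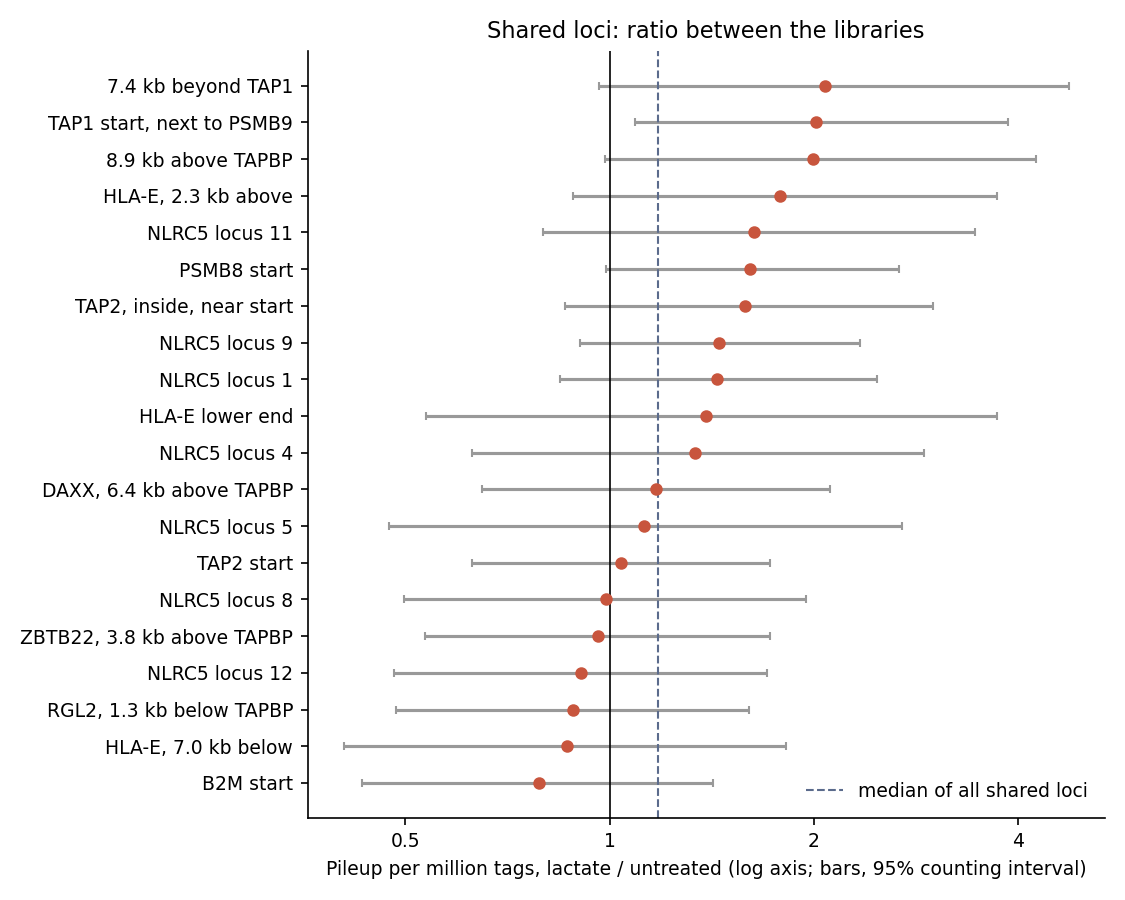
Ratio of summit pileup per 1000000 tags, lactate-labelled over untreated-labelled library, on a log axis, for the 20 shared loci (y axis, ordered by ratio). Points are ratios, bars 95% counting intervals and the dashed line the median of all shared loci; the ratios run from 0.787 at the B2M start to 2.08 beyond TAP1, and 1 interval excludes 1.

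At the starts themselves (250 bases before to 50 after), 5 of the 7 genes in the RefSeq table were covered in the untreated-labelled library (37.7% of 13819 protein-coding starts) and 3 in the lactate-labelled library (43.6%). B2M, TAP1 and TAP2 were covered in both (34.5%), HLA-F and TAPBP in the untreated-labelled library alone (3.18%), 0 in the lactate-labelled library alone (9.1%), and HLA-B and HLA-C in neither. The regions over HLA-F and TAPBP had folds of 3.40 and 3.06, among the weakest of their list.

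Of 44 other genes of antigen processing, presentation and their control, 37 had a region in the gene or within 10 kb in each library (84.1%), 35 of them in both. Of all protein-coding genes 74.2% and 78.3% had one, and 70.5% in both. Among the peptide loading genes, TAPBPL, a tapasin relative, had top folds of 8.33 and 7.75, CALR (calreticulin) 5.42 and 7.43, CANX (calnexin) 7.96 and 7.69, and PDIA3 5.19 and 4.43. The peptide trimming enzyme genes ERAP1 and ERAP2 had 7.93 and 8.87, and 5.09 and 4.87. Their windows overlap, so they are not independent. PSMB8 and PSMB9 share regions with TAP1 and TAP2.

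Among the activators, IRF1, the interferon-induced transcription factor gene, had a region in both libraries with 38 and 54 tags and folds of 5.93 and 7.28. RFX5 had top folds of 4.58 and 4.03, and RFXANK 6.22 and 7.45. CREB1 had 2 and 1 regions with top folds of 6.41 and 7.18, IRF2 had 3 and 4 with 7.56 and 6.25, and CIITA, the class II transactivator gene, 6 and 4 with 5.98 and 7.34. RFXAP, which encodes the third subunit of the RFX complex, had 1 region, in the untreated-labelled library alone (10 tags, fold 4.13), as did HLA-DPA1 (7 tags, fold 3.01). Of the genes of NF-Y, NFYA had 2 regions in each library, with top folds of 7.69 and 9.59, and NFYC had 2 and 4, with 4.73 and 5.41. The third, NFYB, had 1 in the lactate-labelled library alone (16 tags, fold 5.82), as did HLA-DQB1 (9 tags, fold 4.42). The 5 genes without a region in either library, named after their values were seen, were HLA-G, HLA-DRA, HLA-DRB1, HLA-DQA1 and HLA-DMB, of class I and class II. All 5 are HLA genes, where tag counts are uncertain as said above. The part of this in their lack of regions was not tested.

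Genes that define the labelled cell type and genes of other cell types both had regions within 10 kb, so the label could not be checked this way. Squamous epithelial marker genes had a region at 12 of 12 in each library and blood cell markers at 8 of 8, with 3 of 5 fibroblast and 3 of 4 endothelial markers. Of all protein-coding genes 74.2% had one in the untreated-labelled library and 78.3% in the lactate-labelled library. The peak lists hold no expression values, so whether the 9 genes are transcribed was not measured here.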

How the data were processed

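CUT&Tag with a pan-lactyllysine antibody gave 1 library from untreated and 1 from lactate-treated CAL27 cells. The submitters' processing notes name fastp 0.20.0, BWA, MACS2 2.1.0 and the build hg38. Per the file headers, MACS 2.1.0.20150420 called peaks in each library without a control at q 0.05, shifting tags by -100 bp and extending them to 200 bp, which centres each tag on its cut. The deposited pileup is a signal, a number of stacked tags that the authors left unscaled. The deposited fold enrichment is a ratio to local background with 1 added to both. Of spike-in scaling the sources used here say nothing. The lists hold called peaks alone, so tags at places without a peak are not known.

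From the 49750 and 58929 summits, those of the same start and end were collapsed to the summit of highest fold (43680 and 50352 regions). Overlapping regions of the libraries were joined to loci. Genes came from RefSeq (GRCh38.p14), which gives no exons. Pileups were divided by total tags, and ratio intervals come from the exact binomial. Local background was recomputed from pileup and fold. A listing limit is the lowest pileup of the other library at a background within 10%. Like length means a window of 0.8 to 1.25 times the length. Promoters were aligned globally with Biopython 1.88 (match 1, mismatch -1, gap opening -2, extension -0.5). The code for overlaps, ratios and windows was tested on simulated data, whose pileups were higher on average than those here. The other steps were not tested this way. The genes and lists were chosen with earlier results of these data known. The genes named were all 9, list genes sharing a region with them or with regions in 1 library alone, the loading genes and the activators, of which a gene is not reported here. Alternatives were stricter thresholds, equal lists, windows of 5 and 1 kb, 50% overlap, all summits and other scalings. Python 3.11.15 was used with SciPy 1.17.1, numpy 2.4.6, pandas 2.3.3 and, for figures, matplotlib 3.10.9.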

Additional observations from a re-analysis of the deposited data

How the results depend on the processing

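No paired analysis was possible because each group had 1 library. Of 49 values recomputed for 9 results, 33 stayed within 1.5 times the reported count or within the interval of the summed ratio, and 16 moved further. A turn of direction was looked for in the median ratio alone, and 0 of its values turned. For the counts it was not assessed in this way. In the untreated-labelled library the 29 regions became 7 at a fold enrichment of at least 5, 15 where the recomputed −log10 p was 7 or more, 11 with equal lists of the 21840 strongest regions and 16 with a window of 1 kb. The 21 shared became 6, 12, 7 and 12 under the same settings, and the 8 genes with a region 5 at a fold of at least 5. In the lactate-labelled library the 30 regions became 11 at a fold of at least 5 and 9 with equal lists. Its 20 shared regions became 6, 12, 7 and 12, and its 8 genes with a region 5 with equal lists. With equal lists the untreated-labelled library thus had more regions at these genes, 11 against 9, than the lactate-labelled library. The cause was not tested. The median ratio of 1.36 was 1.16 with the median of all shared loci set to 1, 1.19 for fold enrichment (1.09 over all shared loci), 1.41 with 50% overlap and, in alternatives added after seeing the data, 1.38 without NLRC5 and 1.25 with the mean of a region's summits. Pileups of 8 to 46 tags limit the precision of each locus.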

Other observations

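Regions were dense across the stretch of chromosome 6 that holds 7 of the 9 genes, and less so in its middle. From HLA-F to HLA-B, 1.63 Mb, there were 71 regions in the untreated-labelled library and 89 in the lactate-labelled library, 43.5 and 54.5 per Mb. From TAP2 to TAPBP there were 48.8 and 50.8 per Mb. Between HLA-B and TAP2, where complement and other class III genes and several class II genes lie, there were 27.3 and 35.5 per Mb, although protein-coding genes were densest there (49.8 per Mb against 28.8 and 44.7). Tag counts at HLA genes are uncertain, and the part of this in these densities was not tested. Over chromosome 6 from its first to its last gene there were 15.7 and 18.3 regions and 6.15 genes per Mb. The stretches were bounded by the genes examined and were chosen after seeing the data.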
